A study of Homo sapiens with 23 samples.

Results

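Replication start sites of wild-type HCT116 cells that had been treated with aphidicolin and released were compared with those of SIRT1-depleted HCT116 cells. HCT116 is an established human colon carcinoma cell line. The pair is 2 of the 23 samples of the study, and its members are the 206983 start-site regions on chromosomes 1 to 22 and X, 96993 in the aphidicolin list and 109990 in the SIRT1-depleted list. They were taken as deposited, by sample and chromosome and not by any measured value. A region was counted as shared where it overlapped a region of the other list by at least 1 bp. The comparison asks whether drug stress and SIRT1 loss place start sites at the same positions, with which distance, width and read number.

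The study mapped nascent strands and chromatin binding in HCT116 and K562, a chronic myelogenous leukemia line, and its title ties phosphorylated SIRT1 to the restraint of replication initiation. The aphidicolin sample came from wild-type HCT116 cells given 200 nM of the drug for 24 h, followed by 24 h in fresh medium. The SIRT1-depleted sample came from 1 HCT116 clone with no drug. Lists of that clone rescued with wild-type SIRT1 or with T530A SIRT1, a form that cannot be phosphorylated at T530, and K562 lists of early, middle and late S phase were used for orientation. Chromatin lists of pSIRT1 (SIRT1 phosphorylated at T530), pMCM2 (MCM2 phosphorylated at S139) and H4K16ac (histone H4 acetylated at lysine 16) came from unsynchronised, untreated wild-type HCT116 cells. No list of untreated wild-type HCT116 nascent strands was analysed here. The drug, the release, the clone and the SIRT1 status therefore cannot be told apart in any difference between the lists.

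Newly started DNA strands are short and carry an RNA primer, which protects them from λ-exonuclease, and sequencing of the strands that survive digestion maps where replication begins. Human cells license far more origins than they use, and dormant ones can fire when forks slow down. Aphidicolin inhibits replicative DNA polymerases and slows forks. SIRT1 is an NAD-dependent deacetylase that can remove the acetyl group of H4K16, and MCM2 is a subunit of the replicative helicase whose phosphorylation accompanies origin activation.

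Each group had 1 library, so there was no replicate error and no p-value, and every difference below is a difference between libraries. Intervals in parentheses are 95% Wilson intervals for shares and exact Poisson intervals for reads. They cover counting error only, and neighbouring peaks are not independent. Fewer reads in a peak cannot be told apart from fewer cells that used the site.

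The aphidicolin list held fewer start sites than the SIRT1-depleted list, and they covered less of the genome. The ratio of peak numbers, aphidicolin over depleted, was 0.882. Aphidicolin peaks covered 314.3 Mb and SIRT1-depleted peaks 384.2 Mb, a ratio of 0.818. The number of sites changed more than their usual size, since the median width was 2400 bp in both lists. The middle 80% of widths ran between 1000 and 6200 bp after aphidicolin and between 800 and 7000 bp after SIRT1 depletion. The deposited read numbers summed to 13701955 in the aphidicolin list and 20014274 in the SIRT1-depleted list. Read density was 43.6 reads per kb of peak after aphidicolin and 52.1 in SIRT1-depleted cells. The median peak had 101 reads in the aphidicolin list and 107 in the SIRT1-depleted list, and the weakest peak had 25 in each. Start sites stood further apart after aphidicolin, with a median gap of 11 kb to the next peak, against 7.4 kb in SIRT1-depleted cells. A gap of 5 kb or less followed 31.5% of aphidicolin peaks and 41.3% of SIRT1-depleted peaks.

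A majority of aphidicolin peaks was shared, and about as many SIRT1-depleted peaks were shared as not. Of the 96993 aphidicolin peaks, 57107 overlapped a SIRT1-depleted peak, 58.9% (58.6 to 59.2). Of the 109990 SIRT1-depleted peaks, 56727 overlapped an aphidicolin peak, 51.6% (51.3 to 51.9). Where sharing required 50% of the shorter peak to overlap, the shares were 55.4% for aphidicolin and 48.0% for SIRT1 depletion, so the small majority of the SIRT1-depleted list ended. That left, at 1 bp, 39886 peaks seen only after aphidicolin and 53263 seen only after SIRT1 depletion. Shared sequence amounted to 163.5 Mb, which was 52.0% of the aphidicolin peak length and 42.6% of the SIRT1-depleted peak length. The middle of an aphidicolin peak lay inside a SIRT1-depleted peak in 48.7% of cases, while SIRT1-depleted peaks covered 12.7% of the genome span. The middle of a SIRT1-depleted peak lay inside an aphidicolin peak in 40.8% of cases, while aphidicolin peaks covered 10.4% of that span. Sharing was much rarer between peak middles. With each peak cut to the 200 bp around its middle, 7.47% of aphidicolin peaks and 6.59% of SIRT1-depleted peaks were still shared.

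Strong and wide start sites were shared most often. With the aphidicolin list cut into 5 equal groups by reads, from fewest to most, 37.5%, 42.7%, 54.4%, 70.6% and 89.2% of peaks were shared. The SIRT1-depleted list, cut in the same way, gave 31.4%, 39.7%, 49.3%, 61.1% and 76.3%. Sharing therefore went up at each step in both lists, and the strongest SIRT1-depleted peaks were shared less often than the strongest aphidicolin peaks. The strongest of the 5 groups reached down to 181 reads in the aphidicolin list and 226 reads in the SIRT1-depleted list. By width, 44.1% of aphidicolin peaks up to 1200 bp were shared and 83.8% of those over 4000 bp. In the SIRT1-depleted list the same classes gave 34.3% and 72.8%. A wide peak meets an overlap of 1 bp more readily, and the groups by reads also differed in width. From fewest to most reads, median widths went from 1000 to 6200 bp for aphidicolin and from 1000 to 7000 bp for SIRT1 depletion. The share expected from width alone was not computed.

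**Figure D1:**
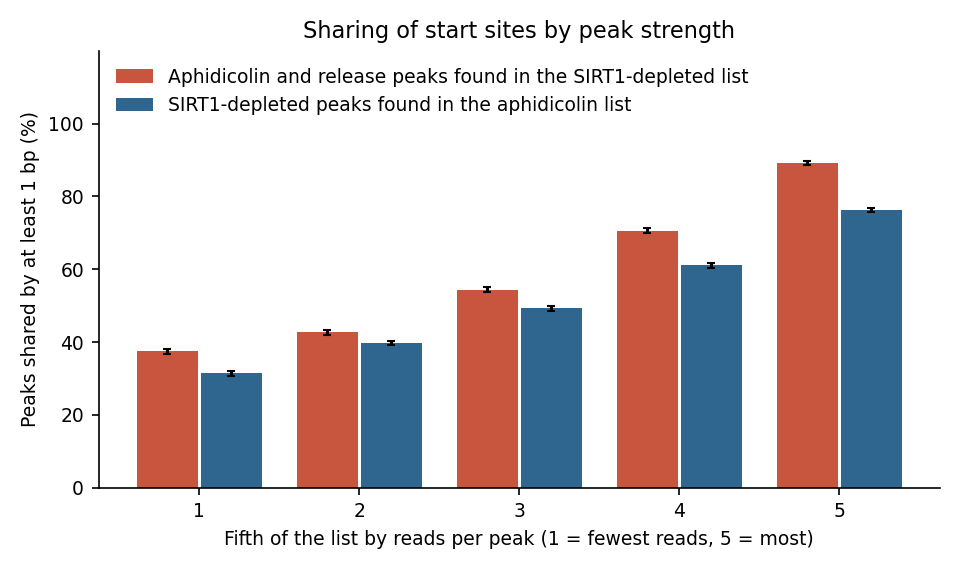
Share of peaks (y axis, %) that overlap the other list by at least 1 bp, for 5 equal groups of each list by reads per peak (x axis, 1 = fewest reads). Red bars are aphidicolin and release peaks, blue bars SIRT1-depleted peaks, and error bars are 95% Wilson intervals; the red bars climb to 89.2% and the blue bars to 76.3%.

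Within width classes, sharing also went with read density. Each width class was cut into 5 equal groups by reads per kb. Among aphidicolin peaks over 2400 and up to 4000 bp, 85.4% of the densest and 32.3% of the sparsest group were shared. The SIRT1-depleted list gave 63.1% and 40.1% for the densest and sparsest groups of that width class. In the narrowest class the densest group of SIRT1-depleted peaks, with a median of 115 reads per kb, was shared in 35.9% of cases, close to the 30.7% of the sparsest group. The densest group of narrow aphidicolin peaks was shared in 55.9% of cases, at a median of 83.3 reads per kb.

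Shared aphidicolin peaks were typically 3000 bp wide with 127 reads (medians), against 2000 bp and 79 reads for aphidicolin-only peaks. Shared SIRT1-depleted peaks were typically 3200 bp wide with 140 reads, against 2000 bp and 85 reads for depleted-only peaks. Unshared peaks were thus narrower in both lists, at the same median width. Shared peaks held 72.8% of all reads of the aphidicolin list and 65.9% of those of the SIRT1-depleted list. A shared peak sometimes met several partners. In all, 6314 aphidicolin peaks, with a median width of 6800 bp, overlapped 2 or more SIRT1-depleted peaks, and 6341 SIRT1-depleted peaks, with a median width of 7800 bp, overlapped 2 or more aphidicolin peaks.

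Most unshared start sites lay within 50 kb of a start site of the other condition. The median gap, edge to edge, was 8.4 kb between aphidicolin-only peaks and the nearest SIRT1-depleted peak, with a middle 50% of 3.0 to 21 kb. It was 7.0 kb between depleted-only peaks and the nearest aphidicolin peak, with a middle 50% of 2.6 to 16.8 kb. Few were near misses, since 8.78% of aphidicolin-only and 9.61% of depleted-only peaks lay within 1 kb of the other list. Within 10 kb lay 55.1% of aphidicolin-only and 60.9% of depleted-only peaks, and within 50 kb 91.9% and 93.5%. Beyond 100 kb lay 759 aphidicolin-only and 1285 depleted-only peaks. Isolated sites of this kind were the exception in both lists. Neighbouring peaks within a list stood at a median gap of 7.4 kb in the SIRT1-depleted and 11 kb in the aphidicolin list. The gaps of unshared peaks are thus of the size of the spacing within the lists and are not read as closeness. Gaps depend on list length and strength, and among the 50000 strongest peaks of each list the medians were 18.6 kb for aphidicolin-only and 9.4 kb for depleted-only peaks. With peaks cut to 200 bp the order turned round, with 2.7 kb for aphidicolin-only and 3.6 kb for depleted-only peaks. Unshared peaks stood closer to the other list than to the shared peaks of their own list, which are fewer and for which the median distances were 19.2 kb after aphidicolin and 12.2 kb after SIRT1 depletion.

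**Figure D2:**
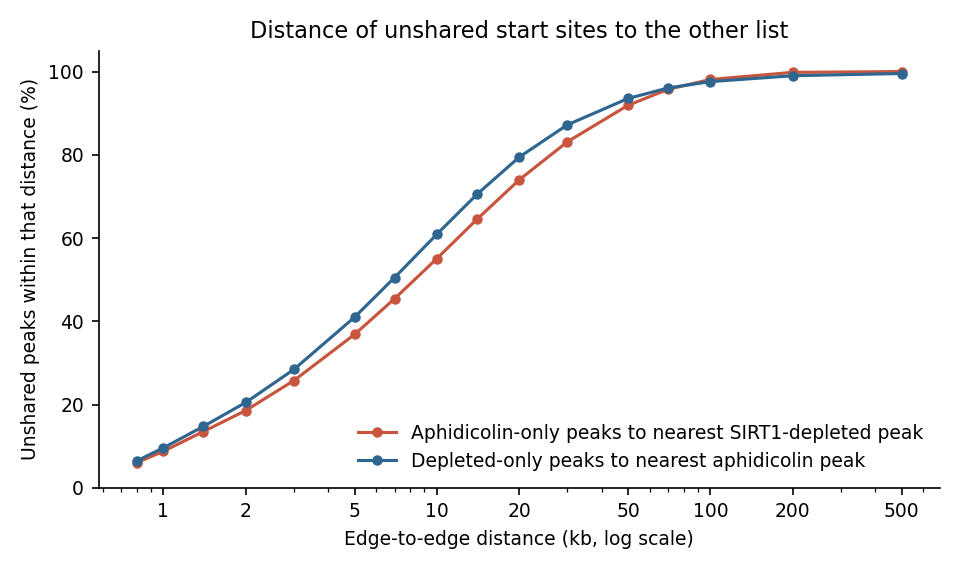
Cumulative share of unshared peaks (y axis, %) within a given edge-to-edge distance of the nearest peak of the other list (x axis, kb, log scale). The red line is aphidicolin-only peaks and the blue line depleted-only peaks; at 10 kb the lines stand at 55.1% and 60.9%.

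For reads and width at the shared sites, peaks with exactly 1 partner on each side were set side by side. There were 39647 such pairs, 40.9% of aphidicolin peaks and 36.0% of SIRT1-depleted peaks. The 2 peaks of a pair had the same typical width, with a median of 2800 bp on either side and a median log2 width ratio, aphidicolin over depleted, of 0. Single pairs varied widely around it, between -1.95 and 1.74 on the log2 scale for the middle 90%. The peaks of a pair were usually shifted against each other. Their middles stood a median of 600 bp apart, and 69.5% were within 1 kb. Both edges coincided in 1196 pairs (3.02%). The aphidicolin peak lay inside the SIRT1-depleted peak in 31.3% of pairs, the SIRT1-depleted peak lay inside the aphidicolin peak in 29.9%, and in 35.8% they were staggered. Neither condition thus gave the wider site as a rule.

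Reads at the pairs were of similar size, with medians of 116 after aphidicolin and 124 in SIRT1-depleted cells. The log2 read ratio, aphidicolin over depleted, was taken relative to the median pair, because the depth of the libraries is unknown. More than 2-fold above the median pair lay 4520 pairs (11.4%), and more than 2-fold below it 5989 pairs (15.1%). Scaled by the summed reads of each list instead, 24.4% lay above and 8.23% below, so the direction of the balance depends on the scaling and is not read as a result. Read differences mostly followed width, and Pearson's r across pairs between the log2 read ratio and the log2 width ratio was 0.87. Per kb of peak, 552 pairs (1.39%) were more than 2-fold above and 1827 (4.61%) more than 2-fold below the median pair. Across pairs, log2 reads of both conditions had a Pearson's r of 0.49 and reads a Spearman's rho of 0.45, with both numbers limited by the same calling threshold; pairs are not independent replicates.

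Relative to the median pair, the pairs with the most summed reads were lower after aphidicolin. With the pairs cut into 5 equal groups by summed reads, the median log2 ratio relative to the median pair was 0.18, 0.18, 0.11, -0.09 and -0.47, from weakest to strongest. In the strongest group 5.76% of pairs were more than 2-fold above and 31.8% more than 2-fold below the median pair. The plot of paired reads shows this as a fan of pairs above the line, towards high SIRT1-depleted reads. The groups and the ratio come from the same reads, so the list with more very strong peaks weighs most in the strongest group. The upper quartile of reads per peak was 160 in the aphidicolin list and 192 in the SIRT1-depleted list. Scaling by summed reads, whose ratio was 0.685, would raise all 5 medians alike. Their signs are therefore not read as a result.

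**Figure D3:**
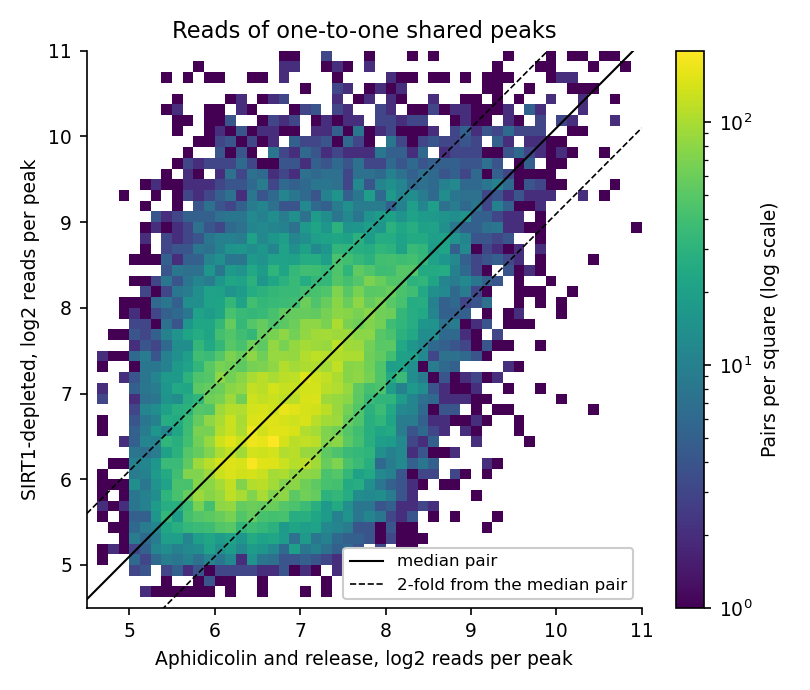
Log2 reads per peak of one-to-one shared peaks after aphidicolin and release (x axis) and in SIRT1-depleted cells (y axis), with the number of pairs per square as colour on a log scale. The solid line is the median pair and dashed lines are 2-fold from it. Outside the plotted range lie 92 of the 39647 pairs. Of all pairs, 15.1% lie above the upper and 11.4% below the lower dashed line. This balance depends on the scaling and is not read as a result.

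The strongest shared region by summed reads was chr4:49278001-49338800 with 27814 reads (27488 to 28143) after aphidicolin, which met chr4:49271201-49338200 with 41036 reads (40640 to 41435) in SIRT1-depleted cells (hg19, as for all coordinates here). This is next to the centromere of chromosome 4, where reads of several repeat copies can gather in 1 place, so the counts are uncertain, and its ratio relative to the median pair was -0.46. The next was chr8:86726401-86841400, a 115000 bp zone with identical edges in both conditions, which held 30722 reads after aphidicolin and 31937 in SIRT1-depleted cells. A second zone of chromosome 8, chr8:86554001-86576400, also had identical edges, with 8480 reads after aphidicolin and 8047 in SIRT1-depleted cells. Both zones of chromosome 8 were present in both rescue lists and in none of the K562 lists. Whether repeat copies also shape the counts and edges of these zones was not tested, so they are uncertain too.

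At the extremes, a broad peak of one condition met a narrow peak of the other. The highest ratio was at chr17:65437601-65450600, with 567 reads over 13000 bp after aphidicolin, against 44 reads over 600 bp in SIRT1-depleted cells. Its log2 ratio relative to the median pair was 3.79. The lowest ratio was at chr2:1543401-1544400, with 51 reads over 1000 bp after aphidicolin, against 3010 reads over 19000 bp in SIRT1-depleted cells (chr2:1525801-1544800), a log2 ratio of -5.78. The 5 highest ratios lay between 3.68 and 3.79 and the 5 lowest between -5.31 and -5.78, so the largest differences were on the SIRT1-depleted side.

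The 5 strongest unshared peaks held fewer reads, unscaled, after aphidicolin than after SIRT1 depletion. The aphidicolin-only peak with the most reads was chr1:144984201-145094400, with 9213 reads (9026 to 9403), and the fifth had 1512 reads. The depleted-only peak with the most reads was chr18:105201-112600, with 42327 reads (41925 to 42732), and the fifth, chr16:33931201-33978200, had 17154. The 5 strongest aphidicolin-only peaks were on chromosomes 1 and 21, and each overlapped all 3 K562 lists. The 5 strongest depleted-only peaks were on 5 chromosomes, and each overlapped pSIRT1 and H4K16ac regions; 1 of them, chr2:133018601-133049400, overlapped a K562 list. The depleted-only peak chr10:42596601-42604000, with 42084 reads, missed the nearest aphidicolin peak by 0.6 kb, and the one on chromosome 18 by 25.8 kb. Most of these regions lie in repeated or duplicated sequence near centromeres, namely the aphidicolin-only regions on chromosomes 1 and 21 and the depleted-only ones on chromosomes 10 and 16, and their read numbers are uncertain for that reason. The depleted-only peak on chromosome 18 held its 42327 reads within 7400 bp, in a list with 52.1 reads per kb of peak. Whether repeat copies raise the counts of the depleted-only peaks on chromosomes 18, 2 and 1 was not tested, so they are uncertain too.

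To ask about sites added beyond those of cells with SIRT1 and no drug, each list was split by overlap with the wild-type rescue list, which held 74479 peaks. Both splits use the same rescue library, so a site which that library missed counts as added on both sides, and the values are set side by side as a description. Absent from the rescue list were 42408 aphidicolin peaks (43.7%) and 54083 SIRT1-depleted peaks (49.2%). Of these, 15690 aphidicolin peaks (37.0%, 36.5 to 37.5) were shared with the SIRT1-depleted list and 15958 SIRT1-depleted peaks (29.5%, 29.1 to 29.9) with the aphidicolin list. Among peaks present in the rescue list the shared parts were 75.9% for aphidicolin and 72.9% for SIRT1 depletion. Most added sites were thus seen in 1 of the 2 conditions. The rescue list is itself uneven, with 9.46% of its peaks on chromosome 5, against 6.01% of the aphidicolin and 5.90% of the SIRT1-depleted list, and 2.26% on chromosome 21, against 1.15% and 1.26%. Without these chromosomes the shared parts of the absent peaks were 37.3% for aphidicolin and 29.7% for SIRT1 depletion. Width moves with this split, since over 4000 bp wide 60.9% of the absent aphidicolin peaks and 42.0% of the absent SIRT1-depleted peaks were shared, and up to 1200 bp 31.1% and 22.8%.

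Sites that both conditions shared were found more often in the T530A rescue than unshared ones, whether added or not. Its list held 55.4% of the shared and 28.7% of the aphidicolin-only peaks absent from the wild-type rescue, and 54.3% of the shared and 24.3% of the depleted-only ones. Among peaks present in the wild-type rescue it held 86.2% of the shared and 61.6% of the aphidicolin-only peaks. For SIRT1 depletion these shares were 85.3% and 59.0%. The pattern is therefore not particular to added sites. The shared added sites were also wider, at a median of 2200 bp against 1800 bp in both lists. Their median reads were 94 against 75 for aphidicolin and 95 against 78 for SIRT1 depletion. The part of width and reads in the T530A shares was not tested. The median gap of added sites to the wild-type rescue list was 10.8 kb for aphidicolin and 9.4 kb for SIRT1 depletion. Neighbouring peaks within the rescue list stood at a median gap of 11.6 kb, so these gaps follow its density and are not read as closeness. Of the one-to-one pairs, 12674 (32.0%) were absent from the wild-type rescue. Their median log2 ratio relative to all pairs was 0.10, with 12.3% more than 2-fold above and 13.0% more than 2-fold below. Among them the pair with the most reads, chr1:161405801-161443600 after aphidicolin and chr1:161405401-161445400 in SIRT1-depleted cells, had 7271 and 10879 reads in that order. It was present in the T530A rescue and overlapped pSIRT1, pMCM2 and H4K16ac regions. Whether repeat copies raise the counts of this pair was not tested.

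The unshared sites of the 2 conditions differed in the chromatin of untreated wild-type cells. A pSIRT1 region was overlapped by 21.97% of aphidicolin-only peaks (21.6 to 22.4) and 51.8% of depleted-only peaks (51.4 to 52.2). For pMCM2 the shares were 27.2% for aphidicolin-only and 44.2% for depleted-only peaks, and for H4K16ac 46.6% and 69.0%. None of these 3 marks was found at 41.5% of aphidicolin-only and 19.0% of depleted-only peaks, and all 3 at 9.04% and 26.6%. Shared peaks carried the marks most often and alike in both lists, with pSIRT1 at 72.1% of shared aphidicolin and 72.9% of shared SIRT1-depleted peaks and H4K16ac at 84.3% and 84.8%. Sites used after SIRT1 depletion and not after aphidicolin thus lay at pSIRT1 regions of wild-type cells more often than sites of the opposite kind.

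The difference had the same sign in each of the 4 width classes. For pSIRT1 it was -21.8 percentage points, aphidicolin-only minus depleted-only, up to 1200 bp and -39.9 over 4000 bp. With only the 200 bp at the peak's middle and the mark lists left whole, pSIRT1 was at 14.2% of aphidicolin-only and 40.8% of depleted-only peaks. With the peaks of both lists cut to 200 bp before they were classed as shared or not, the difference was smaller, -12.2 points for pSIRT1, -4.87 for pMCM2 and -12.0 for H4K16ac. Among added sites unshared between the conditions, pSIRT1 was at 17.2% after aphidicolin and 47.5% after SIRT1 depletion.

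Start sites of K562, another cell line, ran the other way. Early S sites of K562 overlapped 27.7% of aphidicolin-only and 16.7% of depleted-only peaks, middle S sites 26.1% and 18.8%, and late S sites 28.9% and 20.7%. At shared peaks the early S share was 35.3% in both lists. The 3 K562 fractions thus gave the same order, with no fraction apart from the others. The share of K562 sites grew with width among aphidicolin-only peaks, reaching 37.2% for early S over 4000 bp, while among depleted-only peaks of that width it was 16.7%.

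**Figure D4:**
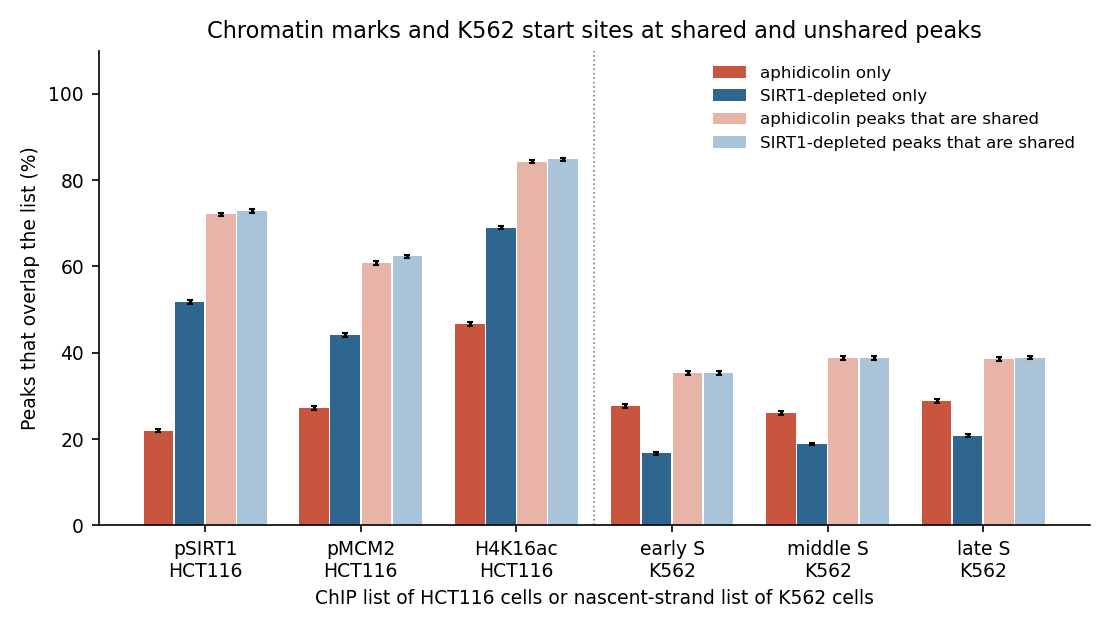
Share of peaks (y axis, %) that overlap each HCT116 chromatin list or K562 nascent-strand list (x axis), with 95% Wilson intervals. Dark bars are unshared and pale bars shared peaks, red for aphidicolin and blue for SIRT1-depleted; aphidicolin-only bars are the lowest for the 3 chromatin lists (21.97% against 51.8% for pSIRT1) and stand above depleted-only bars for the 3 K562 lists.

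Reads at shared pairs followed the same marks. Pairs with a pSIRT1 region had a median log2 read ratio, aphidicolin over depleted and relative to all pairs, of -0.11, and pairs without one 0.23. More than 2-fold below the median pair were 18.3% of pairs with pSIRT1 and 7.85% of pairs without. Pairs with an early S site of K562 had a median of 0.11 and pairs without one -0.065. These differences are small beside the middle 90% of single pairs, -1.80 to 1.40. The ratio also moved with the summed reads of a pair, and the part of peak strength in these differences was not tested.

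Among the other start-site lists, the 2 conditions were not each other's closest match. Aphidicolin peaks overlapped the T530A rescue list in 62.0% of cases, the SIRT1-depleted list in 58.9%, the wild-type rescue list in 56.3% and the K562 lists in 32.2 to 34.6%. SIRT1-depleted peaks overlapped the T530A rescue list in 56.0%, the aphidicolin list in 51.6%, the wild-type rescue list in 50.8% and the K562 lists in 26.3 to 30.1%. These shares depend on list length. With the 50000 strongest peaks of each list, aphidicolin peaks overlapped the wild-type rescue in 62.7%, the T530A rescue in 58.9% and the SIRT1-depleted list in 55.8%. SIRT1-depleted peaks overlapped the wild-type rescue in 61.5%, the T530A rescue in 60.8% and the aphidicolin list in 54.8%. With either list length, both conditions overlapped each HCT116 list more often than any K562 list.

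Along the genome both conditions put their start sites in the same broad regions, with chromosome X apart. All 22 autosomes had fewer aphidicolin than SIRT1-depleted peaks, with ratios between 0.739 on chromosome 22 and 0.998 on chromosome 4. On chromosome X there were 230 aphidicolin and 1123 SIRT1-depleted peaks, a ratio of 0.205. The other HCT116 lists had 158 peaks there in the wild-type rescue and 353 in the T530A rescue, so the library of the depleted cells stood apart from those of both rescues and of the aphidicolin-treated cells. Of the SIRT1-depleted peaks on X, 14.1% were shared, and of the 965 depleted-only peaks there 39.7% overlapped pSIRT1, against 52.0% on autosomes. Without X, 52.0% of SIRT1-depleted peaks were shared, so X does not set the overall values. On autosomes the ratio was lower where pSIRT1 regions were dense, with a Spearman's rho of -0.71 and a Pearson's r of -0.79 over 22 chromosomes, which also differ in gene and base content.

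**Figure D5:**
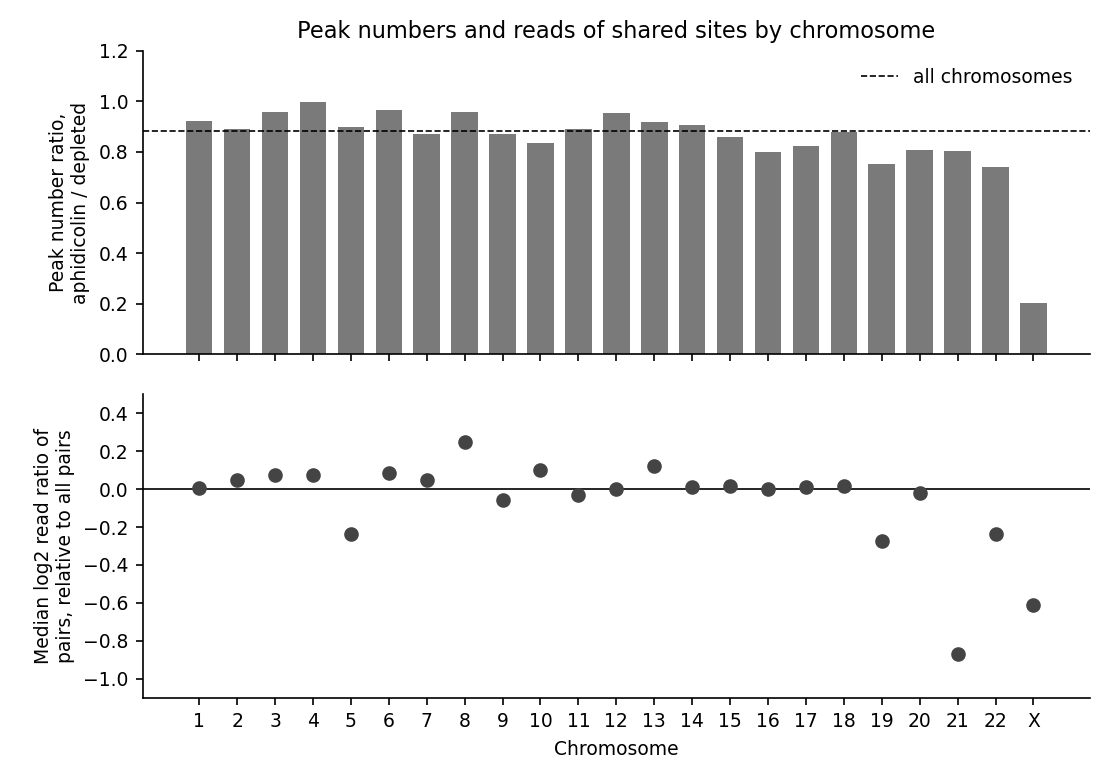
Upper panel, ratio of peak numbers, aphidicolin over SIRT1-depleted, for each chromosome, with the ratio of the whole lists (0.882) as a dashed line. Lower panel, median log2 read ratio of one-to-one pairs on each chromosome relative to all pairs; chromosome X stands apart in the upper panel (0.205) and chromosomes 21 (-0.87) and X (-0.61) in the lower.

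In windows of 5 Mb with at least 50 peaks in the 2 lists together, peak numbers of both conditions had a Pearson's r of 0.92 over 568 windows. More than 2-fold below the ratio of the lists were 12 windows (2.11%), among them all 9 tested on chromosome X, and 1 window (0.176%) was more than 2-fold above. That window, chr7:80000001-85000000, held 65 aphidicolin and 34 SIRT1-depleted peaks. Next came chr4:90000001-95000000 with 81 aphidicolin and 51 SIRT1-depleted peaks and chr3:80000001-85000000 with 52 and 34. The lowest window on an autosome was chr10:130000001-135000000, at the end of the long arm, with 95 aphidicolin and 360 SIRT1-depleted peaks. It held 79 peaks in the wild-type rescue and 135 in the T530A rescue. The lowest of all was the first window of chromosome X, with 4 aphidicolin and 83 SIRT1-depleted peaks.

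More sites after aphidicolin than after SIRT1 depletion were found in windows poor in pSIRT1. With the autosomal windows cut into 4 groups by pSIRT1 number, from poorest to richest, the ratio of summed peaks was 1.06, 1.01, 0.904 and 0.786. The same groups gave 1.16, 1.07, 0.955 and 0.855 for the T530A rescue over the SIRT1-depleted list, and 0.766, 0.751, 0.693 and 0.628 for the wild-type rescue over it. All 3 ratios share the SIRT1-depleted list as denominator.

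Reads of shared sites also differed on parts of chromosomes 5 and 8 and on chromosome 21. On chromosome 21 the median log2 ratio of pairs relative to all pairs was -0.87, with 45.2% of 498 pairs more than 2-fold below. On the first 50 Mb of chromosome 5 it was -0.99, with 49.3% of 681 pairs more than 2-fold below, and on the rest of that chromosome -0.01. That first stretch held 1500 aphidicolin and 2084 SIRT1-depleted peaks, and the rest 4329 and 4403. Beyond 50 Mb on chromosome 8 the median was 0.35, with 23.2% of pairs more than 2-fold above, and -0.02 on the first 50 Mb. On chromosomes 5 and 8 the median thus differed between the 2 parts. The cut at 50 Mb was a set limit, so the ends of these shifts were not located. Over whole chromosomes the median was -0.23 on chromosome 5, -0.27 on chromosome 19 and -0.24 on chromosome 22. Chromosomes 19 and 22 were not split. Both rescue lists were dense on chromosomes 5 and 21, with 9.09% and 2.15% of the T530A rescue peaks there, beside the wild-type rescue shares given above. Reads per peak also depend on the number of DNA copies in each line, and the part of copy number in these medians was not tested, since genomic DNA was not analysed here. Without chromosomes 5 and 21, 14.6% of pairs were more than 2-fold below the median pair.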

How the data were processed

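Nascent strands were isolated by size fractionation and exonuclease digestion, and peaks were called against sheared genomic DNA, per the labels. Coordinates are on hg19, and MACS and SICER are named without settings, per the submitters' processing notes. The read mapper and calling settings were not given in the sources used. Without column names in the files, the whole number beside each region of the deposited nascent-strand, pSIRT1 and pMCM2 lists was read as its count of reads, unscaled; these regions lie on a 200 bp grid. For H4K16ac the deposited columns look like MACS output and include a score, a fold and −log10 significance values. Only its positions were used. The K562 ChIP lists, some with a score deposited by the authors in place of a count, and the 2 genomic DNA samples were not used here.

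Within a list, overlapping peaks were joined, and chromosomes 1 to 22 and X were kept, which left out 5 aphidicolin and 62 SIRT1-depleted peaks. Summed reads in peaks are not library depth, which is unknown. Widths were classed at 1200, 2400 and 4000 bp. Differences were described by counts, shares and a fold of 2, with no test, since each group had 1 library. Named regions were those with the most reads (5 shared pairs, 5 of each unshared class, 5 pairs absent from the wild-type rescue), the 5 highest and 5 lowest pair ratios with at least 200 reads in both lists together, and the windows of extreme ratio; those not printed are covered by the ranges. The comparison and the lists were chosen with earlier results of these data known. Genes were not assigned, because no hg19 annotation was used here, and the planned gene lists were therefore left out. The overlap and pairing steps were tested on simulated data. Computations ran in Python 3.11.15 with scipy 1.17.1, numpy 2.4.6, matplotlib 3.10.9 and pandas 2.3.3.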

Additional observations from a re-analysis of the deposited data

How the results depend on the processing

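Of 126 alternative values for 18 results, 34 moved by less than the counting interval and 92 by more. None of the differences in marks changed sign. The other results could not, since shares, gaps, ranks and the ratio of peak numbers are never negative and the median log2 width ratio was 0. Some orders between 2 values did turn: the balance of pairs above and below 2-fold under scaling by summed reads, the order of the median gaps with 200 bp middles, and the small majority of shared SIRT1-depleted peaks when 50% of the shorter peak had to overlap. With 1 library a side, leaving out a replicate could not be run. No paired analysis was possible because each group has 1 library and no result comes from a test. Using 4 width classes and leaving out chromosome X were chosen after seeing the data. Reads per region were inferred from whole numbers, depth is unknown, and the weakest peaks, at 25 reads, set how many sites a list can hold.

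The ratio of peak numbers, aphidicolin over SIRT1-depleted, was 0.919 with peaks within 1 kb merged, 0.814 for peaks above the median reads of the SIRT1-depleted list and 0.818 for covered length.

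Where sharing required 50% of the shorter peak to overlap, 55.4% of aphidicolin and 48.0% of SIRT1-depleted peaks were shared, 35.5% and 28.2% among those absent from the wild-type rescue. The median gaps were then 7.2 kb for aphidicolin-only and 6.2 kb for depleted-only peaks. Differences in marks, aphidicolin-only minus depleted-only, were -29.0 percentage points for pSIRT1, -16.2 for pMCM2, 10.4 for K562 early S and 6.47 for middle S.

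With peaks within 1 kb counted as shared, the shares were 62.5% and 56.2%, 39.2% and 32.5% among absent peaks, and the gaps 9.8 and 8.2 kb. With peaks of a list within 1 kb merged, they were 57.9% and 51.9%, 36.1% for absent aphidicolin peaks, and gaps of 9.2 and 8.0 kb. Then 12.6% of pairs were more than 2-fold above and 15.996% below the median pair.

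With 200 bp around each middle, 7.47% of aphidicolin and 6.59% of SIRT1-depleted peaks were shared, 5.75% and 4.52% of those absent from the rescue, with gaps of 2.7 and 3.6 kb. Of the pairs, 5.26% were above and 9.94% below. The differences in marks were -12.2 for pSIRT1, -4.87 for pMCM2, -12.0 for H4K16ac, 5.61 for early S, 4.09 for middle S and 4.41 for late S.

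With the 50000 strongest peaks of each list, 55.8% of aphidicolin and 54.8% of SIRT1-depleted peaks were shared, and 30.7% of absent aphidicolin peaks. The gaps were 18.6 and 9.4 kb, the median log2 width ratio of pairs -0.10, and 7.03% of pairs were above and 12.0% below. The differences in marks were -32.0 for pSIRT1, -19.6 for pMCM2, -18.8 for H4K16ac, 14.5 for early S, 10.7 for middle S and 9.21 for late S. Ranked by overlap among the 6 other lists, each condition then stood at rank 3 at the peaks of the other, in place of rank 2.

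With the stronger part of each list by reads, 59.5% of aphidicolin and 52.3% of SIRT1-depleted peaks were shared, and 31.5% of absent SIRT1-depleted peaks. The gaps were 16 and 10.0 kb, the median log2 width ratio -0.074, and 6.87% of pairs were above and 12.3% below.

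Scaled by summed reads, 24.4% of pairs were above and 8.23% below. Per kb of peak they were 1.39% and 4.61%. Without chromosomes 5 and 21, 14.6% were below. Without chromosome X, 52.0% of SIRT1-depleted peaks were shared.

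Up to 1200 bp the differences in marks were -21.8 for pSIRT1, -13.9 for pMCM2, -19.8 for H4K16ac, 8.44 for early S, 3.93 for middle S and 4.81 for late S. In the next class they were -27.4 for pSIRT1, -14.5 for pMCM2, 9.43 for early S and 5.93 for middle S. In the class that ends at 4000 bp they were -32.3, -16.2, -21.7, 12.4, 9.54 and 9.23 in the order first given, and over 4000 bp -39.9, -23.7, -18.5, 20.6, 15.97 and 16.3. The cause of these shifts was not tested.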

Other observations

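Some added sites were found neither in a rescue line nor in the other condition. Of the 96993 aphidicolin peaks, 42408 were absent from the wild-type rescue. Of those 42408, 19057 were also absent from the SIRT1-depleted list and the T530A rescue, and 8694 were present in both. Of the 109990 SIRT1-depleted peaks, 54083 were absent from the wild-type rescue. Of those 54083, 28856 were also absent from the aphidicolin list and the T530A rescue, and 8659 were present in both.

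On chromosome X the aphidicolin peaks held 0.130% of the reads of their list and the SIRT1-depleted peaks 0.586%. The K562 lists had 1283 early S, 1377 middle S and 1459 late S peaks there. Of the aphidicolin peaks on X, 60% overlapped a pSIRT1 region and 87.4% an H4K16ac region, against 44.7% and 79.4% of the SIRT1-depleted peaks on X.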
